A study of Mus musculus with 4 samples.

Results

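A set of 5 genes of sodium transport across the cell membrane was followed in ribosome profiling libraries of mouse hearts: Atp1b1 and Atp1b3, which code for beta subunits of the sodium pump, Fxyd1 and Fxyd5, which code for small FXYD proteins that bind the pump, and Slc8a1, which codes for the sodium-calcium exchanger NCX1. They were taken by symbol, and all 5 were found once each among the 55382 genes of the deposited tables. All 5 passed the filter on low values (2 or more libraries with an FPKM of 1 or above), which kept 15031 genes.

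The samples were hearts of mice 15 days old, in 2 KO libraries (a conditional knockout of Nat10, which codes for an RNA cytidine acetyltransferase) and 2 WT libraries (called FF in the library names). Ribosome-protected fragments were sequenced after treatment with cycloheximide and RNase I. The labels name cardiomyocytes, but the protocol starts from whole heart tissue. The sources used here do not name the driver or the age of deletion of the knockout, or say whether each library came from a separate animal. The p-values therefore cover the spread from library to library, and that spread may be technical.

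The sodium pump, or Na,K-ATPase, exports sodium and imports potassium at the cost of ATP. Its alpha subunit carries out transport, its beta subunit is a glycoprotein needed for folding and delivery to the membrane, and an FXYD protein can join them and tune the affinity for ions. In heart muscle the sodium gradient made by the pump drives the exchanger, which removes calcium from the cell between beats, so the pump and the exchanger together help to set the calcium content of the cell.

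Each gene had 3 values per library: the footprint level in FPKM (fragments scaled to gene length and library total), the authors' ratio called translation efficiency (TE), and their quotient, the implied RNA level in FPKM. The depth in reads is unknown, since FPKM keeps no read total. The median FPKM of all tested genes was 23.3 and 28.7 in the KO libraries and 20.4 and 17.3 in the WT libraries. Over all tested genes the median log2 footprint difference, KO minus WT, was 0.36, so differences are also given relative to it, and mitochondrial tRNA genes held 48.9% to 57.0% of the summed FPKM. Nat10 itself had 40.01 and 52.1 FPKM in KO and 77.3 and 73.9 FPKM in WT, and limma's test did not call it (adjusted p = 0.295).

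None of the 5 genes was called between KO and WT hearts in footprint level, in implied RNA level or in TE by limma's test with Benjamini-Hochberg adjustment over all tested genes. Without adjustment, 2 of the 5 had p under 0.05 in footprint level (Atp1b3 and Fxyd5), 1 in implied RNA level (Fxyd5) and 0 in TE. The same held for 2599 of 15031 genes in footprint level, 3544 of 12529 in implied RNA level and 759 of 12529 in TE, so 1 of 5 in RNA is no more than that background. Over all tested genes, 0.379% were called in footprint level (0.253% rose and 0.126% fell), 5.73% in implied RNA level (4.2% rose and 1.53% fell) and 0% in TE. The footprint levels of Atp1b3 and Fxyd5 lay higher in both KO libraries than in both WT libraries, and those of Atp1b1, Fxyd1 and Slc8a1 overlapped between the groups. Of all tested genes, 39.5% had both KO libraries above both WT libraries in footprint level, and 51.7% did not overlap in either direction, so 2 of 5 is close to that background. The median log2 footprint difference of the 5 genes was -0.05, against 0.36 over all tested genes.

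**Figure D1:**
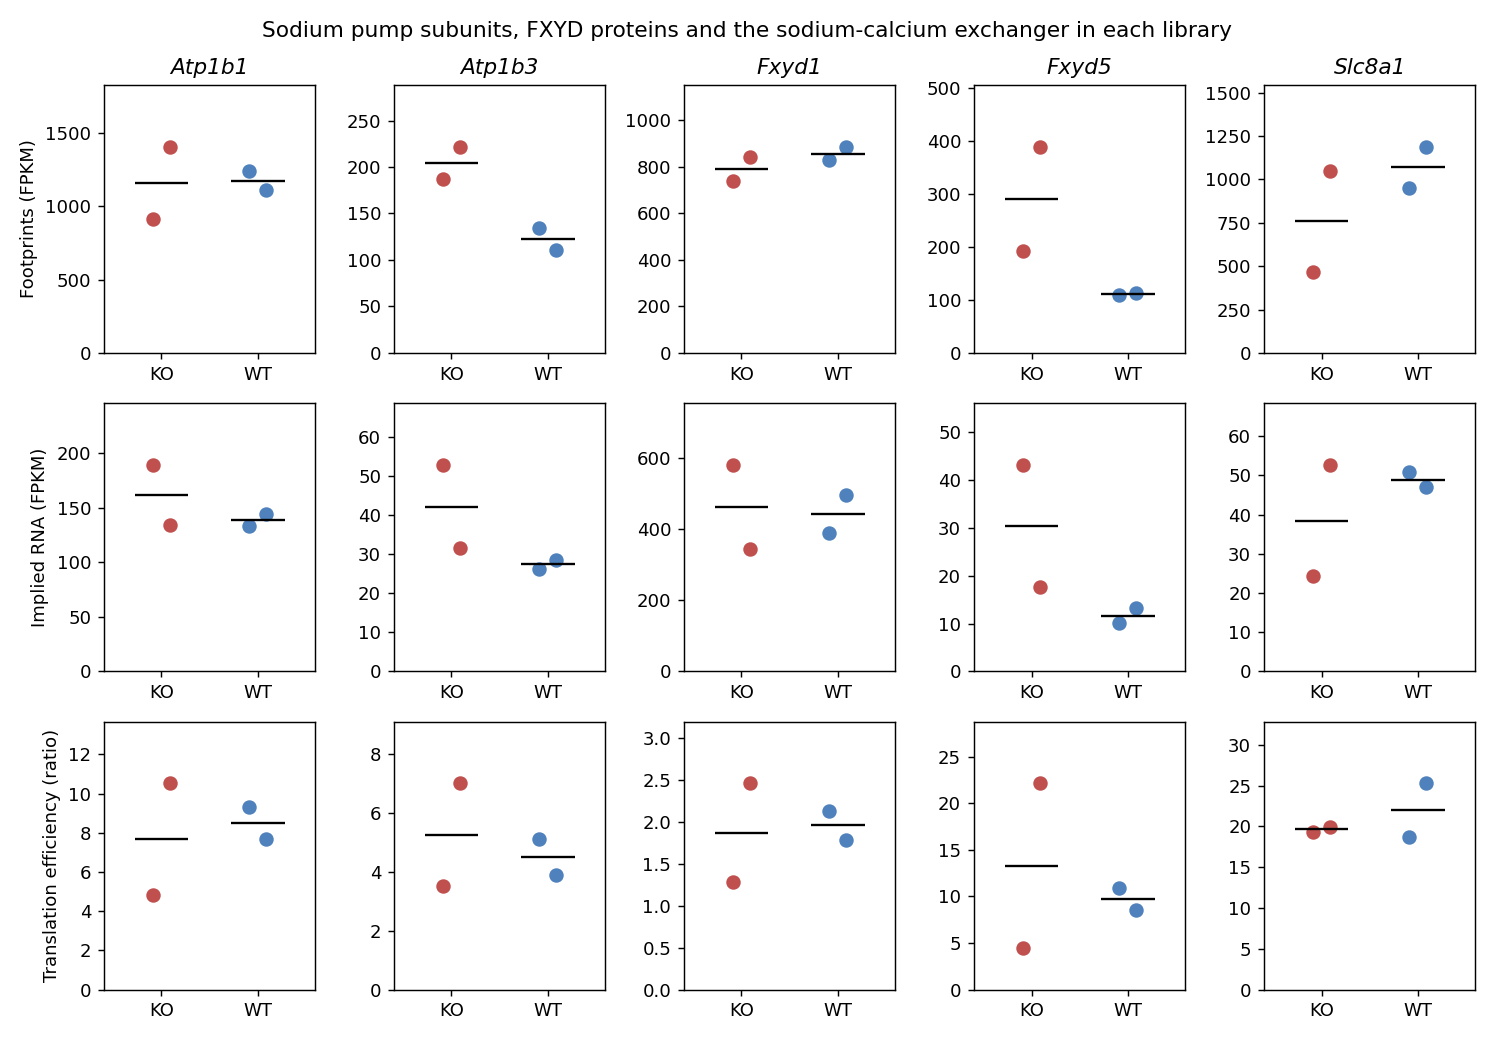
Each column is 1 gene, and the rows give the footprint level (FPKM), the implied RNA level (FPKM) and the translation efficiency (ratio) of each library on axes that start at 0. Points are libraries (replicate 1 on the left within a group) and bars are means of 2, and the KO points of Atp1b3 and Fxyd5 lie above the WT points in the upper rows while those of the other genes overlap.

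The beta subunits are described first. Atp1b1, the main beta subunit of heart muscle, lies on the minus strand of chromosome 1 from 164437099 to 164458355 in GRCm38 (ENSMUSG00000026576). It had 911 and 1406 FPKM of footprints in the KO libraries and 1244 and 1109 FPKM in the WT libraries, which lay between the KO values. The means were 1159 ± 350 FPKM in KO and 1176 ± 95.2 FPKM in WT (SD, n = 2 each). The log2 difference was -0.05, with a 95% interval from -0.73 to 0.62 (adjusted p = 0.935, limma), or -0.41 against the all-gene median. The plain difference was 0.26 without KO replicate 1 and 0.03 without WT replicate 1, so its direction was not settled. The implied RNA values were 189 and 134 FPKM in KO and 134 and 144 FPKM in WT. KO replicate 1 was the high library, and the log2 difference in RNA was 0.20 (95% interval -0.38 to 0.78, adjusted p = 0.621). Its last 202 bases are shared with Nme7, annotated on the plus strand, whose own footprint level was 26.8 and 27.0 FPKM in KO and 24.1 and 19.9 FPKM in WT. The sources used here do not say whether counting used strand.

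Atp1b3, a beta subunit found in many cell types, lies on the minus strand of chromosome 9 from 96332655 to 96364431 (ENSMUSG00000032412). It had 187 and 222 FPKM of footprints in KO and 135 and 111 FPKM in WT. Both KO libraries were above both WT libraries, with means of 204 ± 24.5 FPKM in KO and 123 ± 16.7 FPKM in WT (SD, n = 2 each). The log2 difference was 0.73 (SE 0.25, 95% interval 0.11 to 1.35), or 1.66-fold, and limma's test did not call it (adjusted p = 0.246). Set against the all-gene median the difference was 0.37. The implied RNA level was 52.9 and 31.6 FPKM in KO and 26.3 and 28.5 FPKM in WT, again with no overlap, and KO replicate 1 was far above the other 3 libraries. The RNA difference was 0.58 on the log2 scale (95% interval -0.09 to 1.25, adjusted p = 0.228). It was 0.95 (adjusted p = 0.014) without KO replicate 2, and thus called, and 0.21 without KO replicate 1. Over all tested genes, 44.2% had both KO libraries above both WT libraries in implied RNA level, and 62.8% did not overlap in either direction.

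Within each library the balance between the beta subunits can be read per length. The ratio of Atp1b1 to Atp1b3 in footprint FPKM was 4.87 and 6.34 in KO and 9.23 and 9.99 in WT. In implied RNA it was 3.58 and 4.23 in KO and 5.08 and 5.06 in WT. Both KO libraries were lower than both WT libraries in both measures, and such ratios do not depend on the scaling of a library. With 2 libraries a group, an exact two-sided permutation test of a single ratio cannot go below p = 0.333, so no test is given for any ratio. How often the ratios of other gene pairs separate the groups was not computed.

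The 250 bases upstream of the annotated starts of the beta subunit genes are shown next, and their part in the RNA ratios above was not tested. They are RefSeq sequences of GRCm38.p6, minus strand, 5′ to 3′, with motif matches in capitals, at chr1:164458356-164458605 and, for the first of the pair of annotated Atp1b3 starts, at chr9:96364432-96364681.
Atp1b1: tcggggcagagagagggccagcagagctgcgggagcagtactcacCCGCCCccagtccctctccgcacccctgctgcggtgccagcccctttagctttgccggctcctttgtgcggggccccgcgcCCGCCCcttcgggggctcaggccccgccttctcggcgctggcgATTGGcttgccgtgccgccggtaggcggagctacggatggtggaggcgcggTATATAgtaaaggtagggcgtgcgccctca
Atp1b3: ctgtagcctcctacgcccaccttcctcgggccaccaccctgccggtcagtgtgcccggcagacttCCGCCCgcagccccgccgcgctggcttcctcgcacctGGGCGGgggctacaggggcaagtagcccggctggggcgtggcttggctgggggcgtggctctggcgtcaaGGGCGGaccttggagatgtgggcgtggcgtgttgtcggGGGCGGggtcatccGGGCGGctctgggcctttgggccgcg

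A set of 6 motifs was searched on both strands: the TATA box TATAAA, its variant TATATA, the GC box GGGCGG, the CCAAT box, the MCAT motif CATTCC and the GATA motif AGATAA. Of 32851 annotated windows of 250 bases, 12.4%, 5.25%, 32.7%, 33.8%, 12.6% and 9.99% held them, in that order. The Atp1b1 window had TATATA 25 to 30 bases upstream of the start, a CCAAT box on the opposite strand 77 to 81 bases upstream, and a GC box on the opposite strand at 119 to 124 and at 200 to 205 bases. The Atp1b3 window had 5 GC boxes and none of the other 5 motifs, while the window of its other annotated start, which is not printed, had none of the 6 (76.8% G and C, 35 CpG dinucleotides). The G and C content was 70.4% for Atp1b1 and 73.6% for Atp1b3, and both printed windows had 24 CpG dinucleotides, against a median of 52.4% and 6 over all windows. A match in letters describes the sequence and shows no binding.

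The FXYD genes come next. Fxyd1, phospholemman, is the main FXYD protein of heart muscle and restrains the pump until it is phosphorylated. It lies on the minus strand of chromosome 7 from 31051678 to 31055873 (ENSMUSG00000036570). It had 739 and 843 FPKM of footprints in KO and 827 and 885 FPKM in WT, so the groups overlapped. The log2 difference was -0.12 (SE 0.21, 95% interval -0.63 to 0.40, adjusted p = 0.800, limma), or -0.47 against the all-gene median. In implied RNA it was the highest of the 5 genes in every library, at 579 and 344 FPKM in KO and 389 and 496 FPKM in WT. The WT values lay between the KO values, and the log2 difference was 0.02 (95% interval -0.73 to 0.78, adjusted p = 0.970). Its interval leaves room for a change of either sign.

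Fxyd5, dysadherin, is an FXYD protein with a long extracellular part, known from epithelia and other tissues for effects on cell adhesion. It lies on the same strand of chromosome 7 from 31032723 to 31042331 (ENSMUSG00000009687), and 9346 bases separate it from Fxyd1. It had 192 and 389 FPKM of footprints in KO and 109 and 113 FPKM in WT. Both KO libraries were above both WT libraries, and the KO libraries differed 2.02-fold from each other while the WT libraries differed 1.04-fold. The means were 291 ± 139 FPKM in KO and 111 ± 3.1 FPKM in WT (SD, n = 2 each). The log2 difference was 1.29 (SE 0.37, 95% interval 0.38 to 2.21), or 2.45-fold, the largest of the 5, and limma's test did not call it over all genes (adjusted p = 0.209). Against the all-gene median it was 0.94. Leaving out KO replicate 2 gave a plain difference of 0.79, and leaving out KO replicate 1 gave 1.80.

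The implied RNA level of Fxyd5 was 43.1 and 17.6 FPKM in KO and 10.01 and 13.3 FPKM in WT. Here KO replicate 1 was the high library, whereas in footprints KO replicate 2 was. The log2 difference in RNA was 1.25 (95% interval 0.24 to 2.27, adjusted p = 0.119), against a median of 0.22 over all tested genes. It was 1.90 (adjusted p = 0.0046) without KO replicate 2 and 1.46 (adjusted p = 0.016) without WT replicate 2, both called. It was 0.61 without KO replicate 1.

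The ratio of Fxyd1 to Fxyd5 in footprint FPKM was 3.84 and 2.17 in KO and 7.60 and 7.83 in WT. In implied RNA it was 13.4 and 19.6 in KO and 38.8 and 37.3 in WT. Both ratios were lower in both KO libraries. Between these genes lies Fxyd7, which was listed at 0 in both KO libraries and read 0.81 FPKM and 0 in WT, and beyond Fxyd1 lie Lgi4 and Fxyd3. Fxyd3 was listed at 0 in all 4 libraries, and Lgi4 read 0.98 and 3.19 FPKM in KO and 0.26 and 0.55 FPKM in WT. The lncRNA gene Gm38984 is annotated on the plus strand over all of Fxyd1 and over 5489 bases of Fxyd5. No value for it was used here, and with the strand setting unknown its reads cannot be told apart from those of Fxyd1 and Fxyd5.

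The upstream sequence of Fxyd5 is shown for contrast with the beta subunit genes, up to the end of the neighbouring Fxyd7 gene, at chr7:31042332-31042514 on the minus strand.
Fxyd5: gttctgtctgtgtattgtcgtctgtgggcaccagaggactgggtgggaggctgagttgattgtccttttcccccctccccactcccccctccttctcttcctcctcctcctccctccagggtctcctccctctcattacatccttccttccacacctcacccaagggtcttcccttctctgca

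No letters are in capitals, since none of the 6 motifs above was found in these 183 bases. They hold 1 CpG dinucleotide and are 57.9% G and C, with long runs of C and T. The window of Fxyd1, which is not printed, also held none of the 6 motifs, with 57.2% G and C and 3 CpG dinucleotides. The absence of these letters says nothing about the factors that bind at either gene.

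Slc8a1 exchanges sodium for calcium across the membrane of heart muscle cells. It lies on the minus strand of chromosome 17 from 81373105 to 81738387 (ENSMUSG00000054640). It had 468 and 1051 FPKM of footprints in KO and 952 and 1188 FPKM in WT. KO replicate 1 was the low library, below the other 3, and KO replicate 2 lay between the WT values. The log2 difference was -0.60 (SE 0.41, 95% interval -1.60 to 0.40, adjusted p = 0.470, limma), or -0.96 against the all-gene median. Leaving out KO replicate 1 gave a plain difference of -0.02 and leaving out KO replicate 2 gave -1.18, so the KO libraries decided its size. In implied RNA, KO replicate 1 was again the low library, with 24.2 and 52.6 FPKM in KO and 50.8 and 47.0 FPKM in WT (log2 difference -0.45, 95% interval -1.32 to 0.41, adjusted p = 0.440). Without KO replicate 1 the RNA difference was 0.11, and without KO replicate 2 it was -1.01.

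In translation efficiency, Slc8a1 was the highest of the 5 in 3 of the 4 libraries (Fxyd5 was in KO replicate 2) and Fxyd1 the lowest in all 4. Slc8a1 had a TE of 19.3 and 19.99 in KO and 18.7 and 25.3 in WT. It exceeded the TE of at least 94.9% of tested genes in every library. Fxyd1 had a TE of 1.28 and 2.45 in KO and 2.13 and 1.78 in WT, and exceeded between 17.6% and 28.3% of tested genes. The ratio of Fxyd1 to Slc8a1 was 1.58 and 0.80 in KO and 0.87 and 0.75 in WT in footprint FPKM, and 23.9 and 6.53 in KO and 7.65 and 10.5 in WT in implied RNA FPKM. Atp1b1 had a TE of 4.82 and 10.5 in KO and 9.31 and 7.70 in WT, and Atp1b3 had 3.54 and 7.01 in KO and 5.12 and 3.90 in WT. The TE of Fxyd5 was 4.46 and 22.1 in KO and 10.9 and 8.50 in WT, the widest spread of the 5. The sources used here do not say whether lengths were those of coding sequence or of whole exons, and TE levels compared between genes depend on it.

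No TE difference was called for these genes (adjusted p from 0.968 to 0.998, limma), and the groups overlapped for all 5, whereas 35.9% of tested genes did not overlap (24% higher and 12% lower in KO). The 95% intervals were wide, from -1.50 to 1.00 on the log2 scale for Atp1b1 and from -1.78 to 1.88 for Fxyd5. With intervals this wide, the missing TE calls say little. On simulated data a log2 change of 3 in TE was called in 0% of the changed genes, a share that describes the simulation only. For all 5 genes TE was higher in KO replicate 2 than in KO replicate 1. The ratio was 2.18 for Atp1b1, 1.98 for Atp1b3, 1.92 for Fxyd1, 4.96 for Fxyd5 and only 1.03 for Slc8a1. The median ratio over all tested genes was 1.29. The part of that difference between the KO libraries in the group comparison was not tested.

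**Figure D2:**
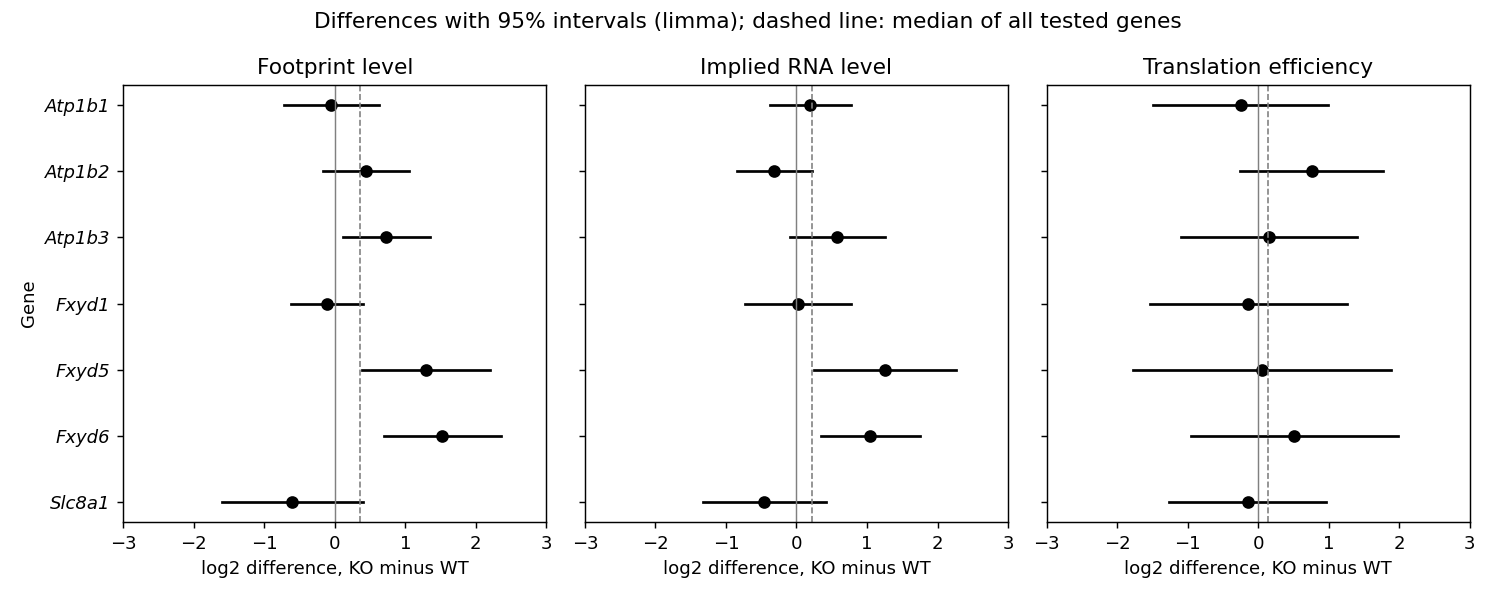
Each row is 1 gene, with the log2 difference between KO and WT (point) and its 95% interval from limma (line) in footprint level, implied RNA level and translation efficiency. The solid line marks 0, the dashed line the median of all tested genes (0.36, 0.22 and 0.15). No gene plotted was called. The intervals of Atp1b3, Fxyd5 and Fxyd6 in footprint level and of Fxyd5 and Fxyd6 in implied RNA level lie above 0. In footprint level the interval of Atp1b3 crosses the dashed line, and that of Fxyd5 begins just above it (0.38).

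In footprint level the order of the 5 genes fell into a high and a low set. Atp1b1, Fxyd1 and Slc8a1 each exceeded at least 95.2% of tested genes in every library. Their order changed from library to library: Atp1b1 was highest in both KO libraries and in WT replicate 1, and Slc8a1 was highest in WT replicate 2. Fxyd5 and Atp1b3 formed the low set in all 4 libraries. Fxyd5 was above Atp1b3 in both KO libraries and in WT replicate 2, and below it in WT replicate 1. In KO the values of Atp1b1 and Slc8a1 overlapped, as did those of Slc8a1 and Fxyd1 and those of Fxyd5 and Atp1b3, while both values of Fxyd1 lay below both of Atp1b1. In WT those of Atp1b1 and Slc8a1 overlapped, as did those of Atp1b3 and Fxyd5, while Fxyd1 lay below Atp1b1 and Slc8a1 in both libraries. Fxyd5 exceeded 88.8% and 92.9% of tested genes in KO and 82.5% and 84.1% in WT.

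Values of the other pump genes were read beside these. Of 11 further pump genes listed (beta subunits, FXYD proteins and the NKAIN proteins that bind a beta subunit), 6 passed the footprint filter, and none was called by limma's test. Their median log2 footprint difference was 0.80, against 0.36 over all tested genes, and 1 of the 6 had an unadjusted p under 0.05 (Fxyd6). In implied RNA level and in TE 3 were tested and none was called, with 1 and 0 of the 3 at an unadjusted p under 0.05.

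Atp1b2, a further beta subunit, had 135 and 139 FPKM in KO and 109 and 93.5 FPKM in WT (log2 difference 0.44, adjusted p = 0.396). In implied RNA it had 14.9 and 18.6 FPKM in KO and 21.4 and 19.95 FPKM in WT (adjusted p = 0.381). Both KO libraries were thus above both WT libraries in footprints and below them in RNA. The TE of Atp1b2 was 9.08 and 7.49 in KO and 5.08 and 4.69 in WT (log2 difference 0.76, adjusted p = 0.834, limma). Over all tested genes, 24% had both KO libraries higher in TE.

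Fxyd6, an FXYD protein known from brain and inner ear, had 60.7 and 85.2 FPKM of footprints in KO and 24.1 and 24.6 FPKM in WT. The log2 difference was 1.52 (95% interval 0.70 to 2.35, adjusted p = 0.157), and both KO libraries were higher. Implied RNA stood at 43.2 and 31.1 FPKM in KO and 14.1 and 22.1 FPKM in WT (log2 difference 1.05, adjusted p = 0.082). That RNA difference ranged from 0.73 to 1.37 with a library left out. Of the rest, Fxyd3, Fxyd4 and Nkain2 were listed at 0 in all 4 libraries, and Fxyd2 read 11.9 FPKM and 0 in KO and 1.14 and 1.09 FPKM in WT.

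Summed by class, the beta subunits had 1234 and 1768 FPKM of footprints in KO and 1487 and 1313 FPKM in WT, and the FXYD genes had 1004 and 1317 FPKM in KO and 961 and 1024 FPKM in WT. Both sums overlapped between the groups, while the shares of the genes named next did not. Shares of a class depend on each other, so they are not separate results. No background of such shares was computed, and 51.7% of single genes did not overlap in footprint level. Atp1b1 made up 73.9% and 79.5% of beta footprints in KO and 83.6% and 84.4% in WT. Atp1b3 made up 15.2% and 12.5% in KO and 9.06% and 8.45% in WT, and Atp1b2 10.9% and 7.88% in KO and 7.31% and 7.12% in WT. Fxyd1 made up 73.6% and 64.0% of FXYD footprints in KO and 86.0% and 86.4% in WT, and Fxyd5 made up 19.2% and 29.5% in KO and 11.3% and 11.05% in WT.

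**Figure D3:**
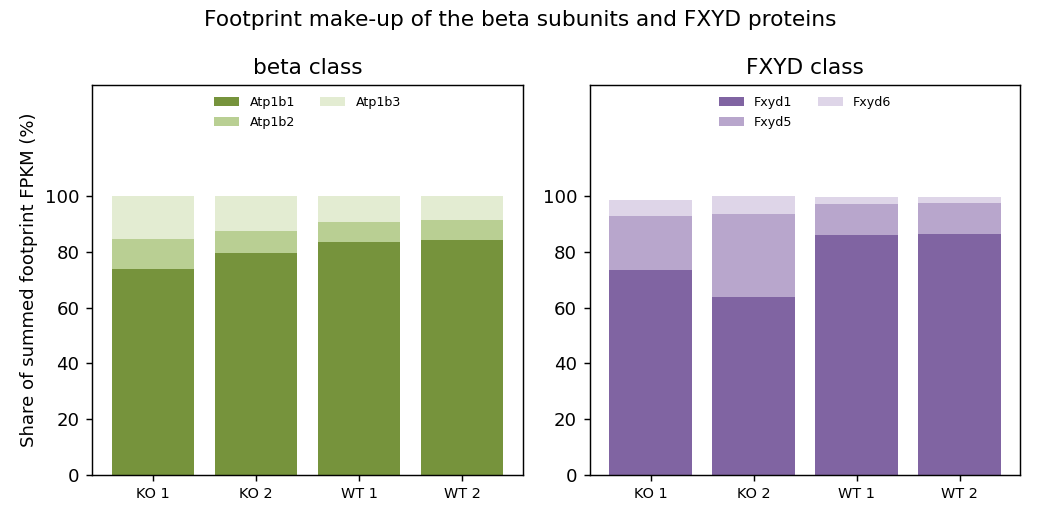
The panels give, for each library, the share of summed footprint FPKM (%) held by the beta subunits and by the FXYD proteins. The KO libraries have smaller shares of Atp1b1 (73.9% and 79.5%, against 83.6% and 84.4% in WT) and of Fxyd1 than the WT libraries, and the FXYD bar of KO replicate 1 stops short of the top because Fxyd2 is not drawn.

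The exchanger was also read against the main beta subunit. The ratio of Slc8a1 to Atp1b1 was 0.51 and 0.75 in KO and 0.77 and 1.07 in WT in footprints, and overlapped in implied RNA.

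Of 18 other sodium exchangers listed, 11 passed the footprint filter and 10 were tested in implied RNA level and TE. None was called in any of these by limma. Unadjusted p lay under 0.05 for 0 of 11 in footprint level, 2 of 10 in RNA and 2 of 10 in TE. Over all tested genes it did for 3544 of 12529 in RNA and 759 of 12529 in TE. Their median log2 footprint difference was 0.32, close to the 0.36 of all genes. In TE their median was 0.72, against 0.15 over all tested genes, with 8 of 10 above that value. Most of these 10 had low values, from which a ratio is uncertain, at no more than 8.87 FPKM of footprints in any library. The exceptions were Slc8b1, Slc9a7, Slc9a8 and Slc9a9. Their TE differences were 0.33, -0.91, 0.10 and 1.33 in that order, on both sides of the all-gene median. In RNA it was -0.04, against 0.22. Slc8b1, the mitochondrial sodium-calcium exchanger, had 19.0 and 46.4 FPKM in KO and 29.5 and 20.7 FPKM in WT (adjusted p = 0.825). The exchanger paralogue Slc8a2 read at most 2.80 FPKM in any library, and Slc8a3 was listed at 0 in all 4.

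Among sodium-proton exchangers of inner membranes, Slc9a7 had 15.2 and 38.2 FPKM in KO and 45.8 and 42.9 FPKM in WT, with both KO libraries lower (adjusted p = 0.413). Slc9a8 had 77.2 and 136 FPKM in KO and 92.5 and 99.9 FPKM in WT (adjusted p = 0.913). Slc9a9 had 13.1 and 14.5 FPKM in KO and 8.99 and 5.21 FPKM in WT, with both KO libraries higher (adjusted p = 0.385). The remaining exchangers of the list that passed the filter read at most 8.87 FPKM in any library.

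Of 16 sodium-coupled cotransporters, 10 were tested and 1 fell in implied RNA level, the phosphate transporter Slc20a2, against 1.53% over all genes. It had 18.0 and 31.7 FPKM of RNA in KO and 64.4 and 60.6 FPKM in WT (log2 difference -1.39, SE 0.30, adjusted p = 0.049), and the call was lost without the mean-variance trend (adjusted p = 0.096). The plasma membrane calcium pumps, which export calcium beside the exchanger, were not called. Atp2b4 had 99.9 and 116 FPKM of footprints in KO and 65.6 and 58.5 FPKM in WT (adjusted p = 0.245), and Atp2b1 had 62.7 and 46.9 FPKM in KO and 46.8 and 84.9 FPKM in WT (adjusted p = 0.802).

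Markers of the cell types in the heart moved beside these genes, and in bulk tissue fewer cells of a type and less RNA per cell cannot be told apart. All 11 cardiomyocyte markers were present, with summed footprint levels of 187954 and 196305 FPKM in KO and 287541 and 336038 FPKM in WT, and 10 of the 11 had both KO libraries below both WT libraries. The background for that separation was 12.1%. All 11 fibroblast markers were also present, with sums of 53245 and 68424 FPKM in KO and 24926 and 20031 FPKM in WT, and 10 of the 11 lay higher in both KO libraries, against 39.5% of all tested genes. Col3a1, a fibrillar collagen, had 25023 and 30048 FPKM in KO and 13280 and 11093 FPKM in WT. Endothelial markers summed to 3283 and 4970.0 FPKM in KO and 2661 and 2318 FPKM in WT (7 of 10 higher in both KO libraries), and macrophage markers to 1032 and 2097 FPKM in KO and 646 and 1088 FPKM in WT (4 of 11, near that background). No marker of these 4 lists was called in footprint level. In implied RNA level 2 of 11 fibroblast and 2 of 11 macrophage markers rose, against 4.2% of all genes. Median log2 RNA differences were 0.22 (fibroblast), 0.19 (endothelial), 1.04 (macrophage) and -0.56 (cardiomyocyte), against 0.22 over all tested genes. Both KO libraries were higher for 5 of 11 fibroblast, 4 of 10 endothelial and 9 of 11 macrophage markers, against 44.2% of genes. They were lower for 2, 1 and 0 of these and for 9 of 11 cardiomyocyte markers, against 18.6%. The part of these shifts in the values of Atp1b3, Fxyd5 and Fxyd6 was not tested.

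Smooth muscle and pericyte markers summed to 4882 and 4520.1 FPKM in KO and 5268 and 5287 FPKM in WT, with 1 of 9 called higher, Tagln, against 0.253% of all genes. The sums were lower in KO, but 5 of the 9 lay higher in both KO libraries and 1 lower. Over all tested genes these shares were 39.5% and 12.1%. The median log2 footprint difference of the 9 was 0.46, against 0.36 over all tested genes. Erythroid markers summed to 1493 and 725 FPKM in KO and 1247 and 1026 FPKM in WT, and markers of T and B cells to 23.5 and 7.61 FPKM in KO and 18.1 and 13.5 FPKM in WT. Markers of glia and nerve summed to 34.9 and 29.3 FPKM in KO and 10.6 and 16.2 FPKM in WT, with Th at 0 in all 4 libraries.

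The genes with the most similar pattern were found by distance over 8 values, the log2 footprint and implied RNA levels of the 4 libraries, each centred on its own mean, among 9146 genes. For Fxyd5 they were Clu, the secreted chaperone clusterin (distance 0.23), Csrp3, the muscle LIM protein (0.29), and Spcs3, a subunit of the signal peptidase (0.32), against a median distance of 1.94. Csrp3 had 7513 and 14605 FPKM of footprints in KO and 4527 and 5421 FPKM in WT. For Atp1b3 they were Serpinb6a, a protease inhibitor of the serpin family, Lage3 and Cox4i2, an isoform of a cytochrome c oxidase subunit (0.15 to 0.19, median 1.152).

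For Atp1b1 the nearest were B9d2, Pitpna, a phosphatidylinositol transfer protein, and Gpi1, the glycolytic glucose-6-phosphate isomerase (0.15 to 0.17, median 1.07). For Fxyd1 they were Hspa5, the chaperone of the endoplasmic reticulum, Txndc15 and Rabggtb (0.22 to 0.24, median 1.18). For Slc8a1 they were Sbno1, Vamp1 and Acox3, a peroxisomal oxidase, at larger distances (0.37 to 0.42, median 1.80). None of the 5 genes was among the nearest of another. The closest pair among them was Atp1b1 and Fxyd1 (0.48), and the farthest was Fxyd5 and Slc8a1 (3.10). With 4 libraries these distances only describe the libraries at hand.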

How the data were processed

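The authors deposited footprint levels in FPKM and translation efficiency as a ratio, per the file headers. The submitters' processing notes list STAR 2.7.4a, Bowtie 1.3.1, Cufflinks 2.2.1, HTSeq 0.13.5, cutadapt 3.7, FastQC 0.11.9 and GRCm38; settings, strand use and the making of the RNA libraries are unknown here. All 59296 quotients of FPKM over TE came to 6 significant digits or fewer (relative tolerance 1e-10), so the quotient was taken as the RNA level. A TE of 0 was taken as missing.

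Values were compared as log2(FPKM + 1), log2(TE) and log2 of the quotient with limma 3.58.1 (lmFit, eBayes with trend, two-sided) in R 4.3.3, over 15031, 12529 and 12529 genes. P-values were adjusted by Benjamini-Hochberg and called at 0.05. Footprint fold changes are on the log2(FPKM + 1) scale. On simulated data with 200 changed genes, a log2 change of 3 was called in 55.5% (footprints), 84% (RNA) and 0% (TE), and one of 1 in 0% for each. The changed genes were drawn from those above the median level, and all other genes were left unchanged. Noise followed each gene's own residual SD. The real data may differ in this, so these shares describe the simulation only.

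Named genes were the 5 members; listed pump and exchanger genes above the filter, some of which are not reported here; cotransporters and calcium pumps that were called, else the 2 with the largest footprint difference at a mean of at least 10 FPKM; the 3 nearest genes of each member at that mean; and leading markers. Members and lists were chosen with earlier results of these data known. Alternatives covered the pseudocount, filters, scaling, trend, replicate block and leaving out each library. Depth in reads is unknown, so no counting interval is given.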

Additional observations from a re-analysis of the deposited data

How the results depend on the processing

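With 2 libraries a group and an unknown depth in reads, small changes could not be detected. Of 420 recomputed values of 42 gene results, 375 kept direction and side of the threshold, 37 reversed (27 of them with a library left out), 7 gained a call and 1 lost one; the cause was not tested.

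Genes called in footprint level (57) numbered 34 with a pseudocount of 0.1 FPKM, 8 without a filter, 224 with an FPKM of at least 5 in all 4 libraries, 221 without small RNA genes and unnamed models, 36 without trend and 0 with any library left out (range 0 to 0, with 1010 to 2497 at an unadjusted p under 0.05). TE calls (0) numbered 1 with an RNA level of at least 1 FPKM, 1 without small RNA genes, 1 without trend and 0 to 33 with a library left out. RNA calls (718) numbered 67 without trend and 704 to 3742 with a library left out, where 0 to 3 of the 5 members were called. A lone library was assumed to vary like the other group. The sources used here do not say whether the replicate numbers pair the libraries. In footprint level the replicate differences of KO and WT had a correlation of -0.06 across genes, which does not settle it. With the replicate block, calls numbered 143 in footprints, 178 in TE and 1429 in RNA, including 1 member, Fxyd5 (adjusted p = 0.032, limma).

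Median-ratio scaling turned the footprint difference to -0.10 for Slc8b1 and -0.28 for Slc9a8, and rescaling without mitochondrial genes to -0.13 for Slc9a8. Median-centring turned TE to -0.034 for Atp1b3, -0.14 for Fxyd5 and -0.093 for Slc9a8, and RNA to -0.011 for Atp1b1, -0.19 for Fxyd1, -0.17 for Slc9a7 and -0.072 for Atp2b1.

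Leaving out a library gave footprint ranges of -0.37 to 0.26 for Atp1b1, -0.37 to 0.88 for Slc8b1, -0.31 to 0.49 for Slc9a8 and -0.64 to 0.21 for Atp2b1. TE ranges were -0.81 to 0.31 for Atp1b1, -0.34 to 0.65 for Atp1b3, -0.61 to 0.33 for Fxyd1, -1.11 to 1.20 for Fxyd5, -0.36 to 0.068 for Slc8a1, -0.41 to 1.07 for Slc8b1, -1.89 to 0.070 for Slc9a7, -0.17 to 0.37 for Slc9a8 and -0.84 to 0.14 for Atp2b1. RNA ranges were -0.052 to 0.45 for Atp1b1, -0.35 to 0.40 for Fxyd1, -1.01 to 0.11 for Slc8a1, -0.16 to 0.025 for Slc8b1, -0.28 to 0.35 for Slc9a7, -0.15 to 0.13 for Slc9a8 and -0.69 to 0.57 for Atp2b4.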
